A study of Homo sapiens with 8 samples.

Results

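EN2, SHH and MNX1 lie in 1.72 Mb of chromosome 7q36 (chr7:155087486-156805357, GRCh37), where developmental regulators alternate with genes of general cell functions. The 8 genes described here, in order along the chromosome, are INSIG1, EN2, CNPY1, RBM33, SHH, LMBR1, NOM1 and MNX1, of 20136 protein-coding genes in the annotation. They were listed as the genes around the island of H3K27me3 that covers EN2 in cells treated with DMSO, and each was taken with the 2000 bp upstream of its start. Since that island chose them, the H3K27me3 of these genes in DMSO is given as a description. The stretch overlaps 10 protein-coding genes in all, and the other two, RNF32 and a gene that has only an identifier, were not on the list.

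The cells were PC9, an established human lung adenocarcinoma line, kept for 5 days with DMSO or with 1 μM GSK126, an EZH2 inhibitor. ChIP-seq for H3K27me3 and for H3K4me3 was performed on 2 libraries of each treatment, 8 libraries in all, to which chromatin of Drosophila melanogaster and an antibody against the Drosophila histone variant H2Av had been added as a spike-in. All groups come from this single cell line, and in a bulk ChIP fewer cells with a mark and less of the mark in each cell cannot be told apart. PC9 chromatin carried H3K4me3 in both DMSO replicates at the starts of 5 of 6 lung adenocarcinoma markers. It did so at none of the 5 markers of other cell types found in the annotation (0 of 5). COL1A1 of the latter and EPCAM of the lung markers had it at the start in 1 DMSO replicate.

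The deposited values are 14 lists of islands, which are stretches of chromatin that hold more sequence tags than a random background gives. In the standard lists the libraries of a replicate had been brought to the same number of human tags. In the spike-in lists the human tags of the GSK126 library had instead been reduced according to the Drosophila tags. The H3K27me3 lists hold 16401 to 35901 islands, and the H3K4me3 lists 17304 to 23875. The mean number of tags per window of 200 bp, called the tag density of a list here, was read from the scores of its shortest islands. Standard H3K27me3 lists had 1.36 in replicate 1 and 1.55 in replicate 2, for both treatments. After spike-in normalization, replicate 1 had 1.65 (DMSO) and 0.382 (GSK126) and replicate 2 had 2.33 and 0.455, 4.72-fold ± 0.551 lower with GSK126 (SD, n = 2). H3K4me3 replicate 2 was shallow, at 0.302, against 1.77 in replicate 1 (DMSO). With 2 replicates an exact sign-flip test of GSK126 against DMSO cannot give a p below 0.5, so values and their spread are given without p-values.

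H3K27me3 is written by EZH2, the catalytic subunit of polycomb repressive complex 2, and broad domains of it cover silent developmental genes. H3K4me3 marks the starts of genes that are active or open to activation. EN2 encodes an engrailed homeobox factor of the midbrain and hindbrain, and its neighbour CNPY1 is related to a regulator of FGF signalling. SHH encodes a secreted hedgehog ligand, and an enhancer that drives it in the limb bud lies far away in an intron of LMBR1. MNX1 encodes a homeobox factor of motor neurons and the pancreas. INSIG1 is a sterol sensor of the endoplasmic reticulum, RBM33 binds RNA, and NOM1 is a nucleolar protein.

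The starts of the developmental genes differ in their CpG dinucleotides, which is why the 250 bases before each start are shown, 5′ to 3′ on the strand of the gene, with CG in capitals. They come from the RefSeq promoter table (GRCh38.p14), in which 7 of the 8 members have an entry (NOM1 has none), and each matched GRCh37 at the position given, at chr7:155250574-155250823 (plus strand) for EN2, chr7:155605158-155605407 (minus strand) for SHH and chr7:156803358-156803607 (minus strand) for MNX1.
EN2: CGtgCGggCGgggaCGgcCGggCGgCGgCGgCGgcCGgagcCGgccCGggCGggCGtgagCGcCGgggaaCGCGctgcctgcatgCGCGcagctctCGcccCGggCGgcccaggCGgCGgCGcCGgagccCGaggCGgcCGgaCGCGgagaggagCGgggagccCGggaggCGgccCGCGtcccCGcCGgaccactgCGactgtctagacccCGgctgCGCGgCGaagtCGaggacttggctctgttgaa
SHH: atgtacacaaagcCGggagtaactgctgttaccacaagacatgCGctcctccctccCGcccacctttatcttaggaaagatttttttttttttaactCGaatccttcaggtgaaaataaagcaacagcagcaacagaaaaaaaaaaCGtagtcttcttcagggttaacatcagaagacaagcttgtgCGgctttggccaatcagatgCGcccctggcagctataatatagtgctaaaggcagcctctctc
MNX1: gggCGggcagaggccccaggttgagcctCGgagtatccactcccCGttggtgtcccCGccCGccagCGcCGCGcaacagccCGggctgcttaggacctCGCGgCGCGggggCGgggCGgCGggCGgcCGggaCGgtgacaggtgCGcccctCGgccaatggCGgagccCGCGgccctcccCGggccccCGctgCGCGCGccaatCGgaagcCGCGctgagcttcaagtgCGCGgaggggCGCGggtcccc
The EN2 sequence holds 45 CpGs, a number that 0.589% of the 35116 promoters in the table reach. The MNX1 sequence holds 36 (4.85% of promoters hold as many) and the SHH sequence 7 (58.9% hold as many), against a median of 11. Human chromosome 7 holds 10.1 CpGs per kb outside unsequenced bases.

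In DMSO the members fell into 3 kinds at their starts. EN2 and CNPY1 had H3K27me3 and no H3K4me3 in the standard lists of both DMSO replicates, a state of 10.3% of all genes. INSIG1, RBM33, LMBR1 and NOM1 had H3K4me3 alone, as 52.2% of genes did. At SHH and MNX1 the replicates gave different states (8.22% of genes), and none of the 8 carried both marks in both replicates of these lists, as 2.50% of genes did. In the spike-in lists MNX1 did, with its start in islands of both marks in both DMSO replicates. Genes of either kind alternate along the stretch, INSIG1 before EN2 and CNPY1, RBM33 between CNPY1 and SHH, and LMBR1 and NOM1 between SHH and MNX1.

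The H3K27me3 islands of DMSO formed 4 blocks, in which no gap between neighbouring islands was longer than 30 kb. The EN2 block spans 326.8 kb (chr7:155103201-155430000), the SHH block 866.4 kb (chr7:155579601-156446000), a block in front of NOM1 49.6 kb (chr7:156689401-156739000), and the MNX1 block 39.6 kb (chr7:156780001-156819600). They are separated by 149.6, 243.4 and 41 kb, and RBM33 and the body of LMBR1 lie in the first and the second of these separations. CpGs were denser in the blocks than in the chromosome as a whole, at 22.7 per kb in the EN2 block, 16.2 in the SHH block, 20.6 in the block before NOM1 and 40.3 in the MNX1 block, against 13.0 and 10.2 per kb in the first and second separations and 21.2 in the third.

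**Figure D1:**
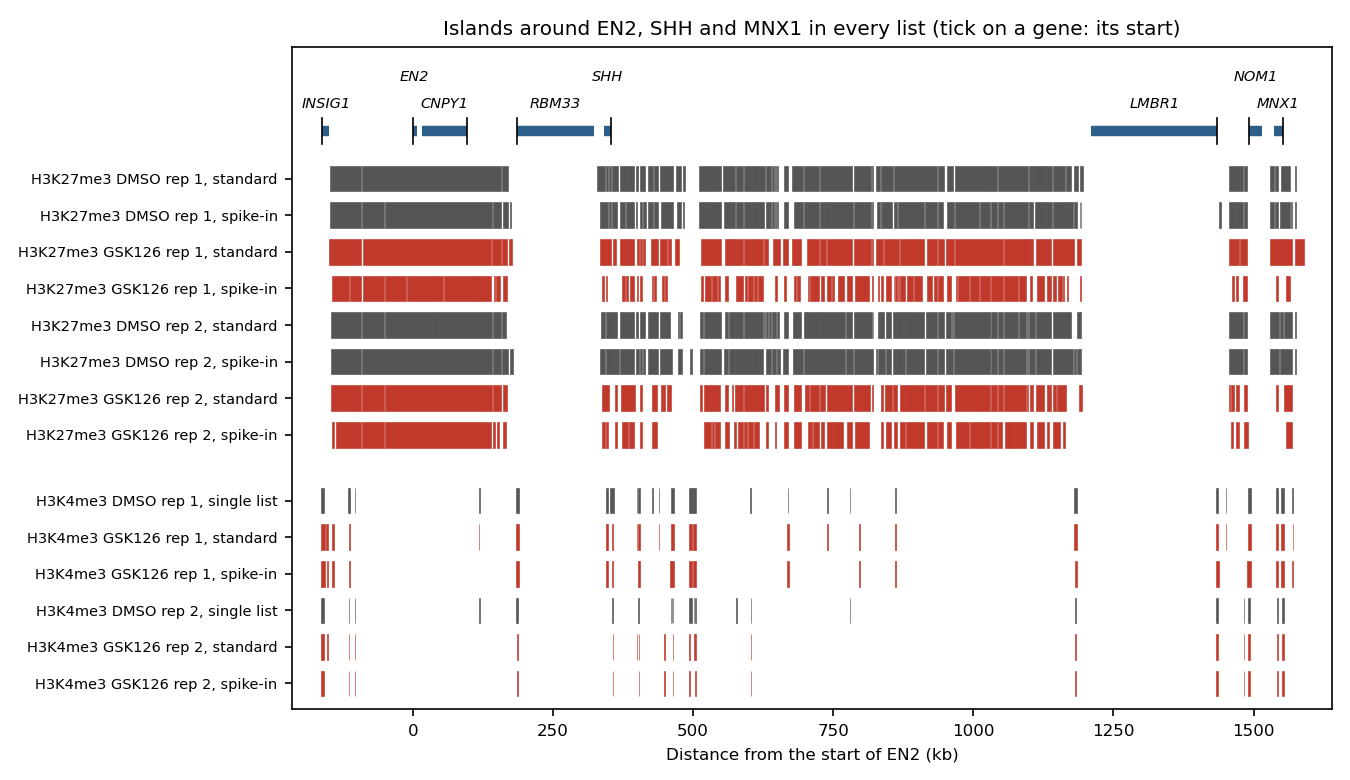
Islands of H3K27me3 and H3K4me3 across the 1.72 Mb around EN2, SHH and MNX1, with a row for each list (treatment, replicate and normalization), against the distance from the EN2 start in kb. Gene bodies are drawn along the same axis, and the 4 H3K27me3 blocks can be seen to thin out with GSK126 in the spike-in lists most at MNX1 and least at EN2.

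The EN2 block nearly filled the space between INSIG1 and RBM33 in all lists, with both treatments. EN2 itself, with its 2000 bp upstream, was covered by H3K27me3 over 100% in all 8 lists, and CNPY1 over 98.8 to 100%. The first island began 0.055 to 5.06 kb past the end of INSIG1, and the last ended 7.14 to 19.9 kb before the start of RBM33, with no H3K27me3 over either neighbour. Its spike-in islands covered 309.6 kb (DMSO) and 292.6 kb (GSK126) in replicate 1, against 314.8 kb and 291.0 kb in replicate 2. That is a log2 ratio of -0.10 ± 0.02 (SD, n = 2), against -1.14 ± 0.05 for the length covered by all H3K27me3 islands of the genome and -1.17 ± 0.08 for chromosome 7. Standard islands covered 311.2 and 314.0 kb in replicate 1 and 303.8 and 305.4 kb in replicate 2 (DMSO and GSK126), and the ratio was 0.01 ± 0.00 against -0.33 ± 0.17 for the genome.

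The length covered thus hardly differed between treatments at EN2, whereas in the spike-in lists it was divided into more islands with GSK126. With DMSO the block held 7 and 6 islands in replicates 1 and 2, and with GSK126 10 and 8. The island over the EN2 start was 191.2 kb long with DMSO in replicate 1 (chr7:155201001-155392200) and had the second highest score of the list (rank 2 of 35901). In the GSK126 list of that replicate 4 islands took its place, of which the one over EN2 was 65.0 kb long (chr7:155240201-155305200, rank 58 of 19812), and together they covered 97.6% of it. In replicate 2 the DMSO island was 230.8 kb long (chr7:155161001-155391800, rank 2 of 35522), and 2 islands with GSK126 covered 99.2% of it, with 189.8 kb in the island over EN2 (rank 3 of 16401). With GSK126 the EN2 island began nearer to the gene in both spike-in replicates, from 49.8 to 10.6 kb upstream in replicate 1 and from 89.8 to 49.8 kb in replicate 2. No such shift was seen in the standard lists, with 89.8 and 89.6 kb in replicate 1 and 49.8 kb for both treatments in replicate 2. In the spike-in lists the new edge was a break with further islands to its left. At chr7:155161001-155200000, GSK126 islands of these lists covered 99.0 and 100% in replicates 1 and 2.

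In the standard lists the block held 4 islands (DMSO) and 6 (GSK126) in replicate 1 but 7 and 6 in replicate 2, so that the replicates differed in direction. With this normalization the EN2 island of replicate 1 was 246.8 kb with DMSO and 229.6 kb with GSK126. In replicate 2 it was 94.0 kb with DMSO, where a gap of 1 kb after position 155295000 divided it from an island of 95.4 kb, and 191.2 kb with GSK126, where that gap was closed. The length of the single island over EN2 thus ranged from 65.0 to 246.8 kb over the 8 lists while the block around it stayed within 291.0 and 314.8 kb.

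**Figure D2:**
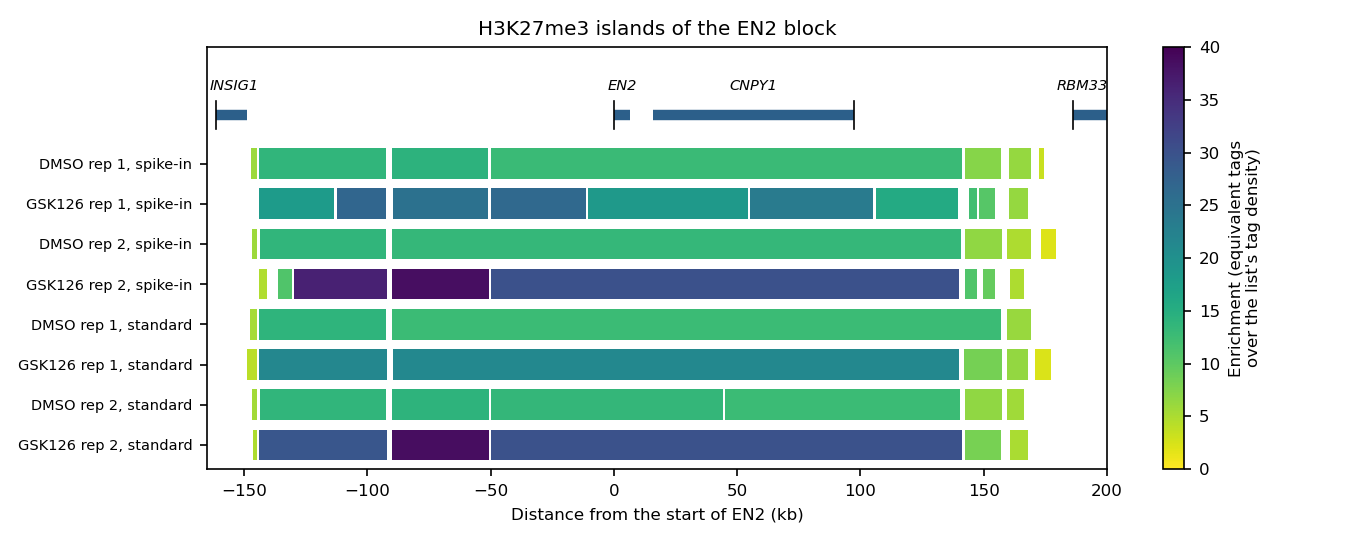
Islands of H3K27me3 in the EN2 block for the 8 lists, by treatment, replicate and normalization, against the distance from the EN2 start in kb. The genes are drawn above, and colour gives the enrichment of each island, which is defined in the text below. Every list covers EN2 and CNPY1, and the GSK126 spike-in list of replicate 1 divides the 191.2 kb DMSO island into 4 pieces.

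Some gaps stood at the same place in all 8 lists. Of the 1634 windows in the block, 86.6% were covered in every list and 2.02% in none. The windows covered in none form 4 gaps, chr7:155106201-155107000, chr7:155158801-155161000, chr7:155408201-155410200 and chr7:155420201-155421800. Only tags that aligned to a single place had been kept, and in GRCh37 68.8, 82.5, 68.3 and 39.1% of the 50-nt tags in these gaps, in the same order, have another exact copy, against 4.15% in the block and 2.57% where every list was covered. The second of them holds the start of the long non-coding RNA gene BLACE, with 70 CpGs per kb, a density that 0.255% of such windows of chromosome 7 reach. The gaps that divided the EN2 island with GSK126 in replicate 1 (spike-in) had smaller shares of such tags than those 4 gaps. The shares were 1.63% (chr7:155239401-155240200), 0% (chr7:155305201-155306000) and 8.42% (chr7:155356001-155357200), against the 4.15% of the block. What gave rise to either set of gaps was not tested.

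A score also carries the number of tags behind an island. Each score was turned into the even number of tags per window that would give it at the tag density of its list, called equivalent tags here, and the ratio of that to the tag density is called enrichment. Spike-in islands of the EN2 block held 21.0 equivalent tags per window (DMSO) and 8.07 (GSK126) in replicate 1, and in replicate 2 they held 29.5 and 13.9. That is 2.60-fold and 2.12-fold lower with GSK126, less than the 4.33-fold and 5.11-fold difference in the tag density of the whole lists. The enrichment of the block was accordingly higher with GSK126, 21.1 against 12.7 in replicate 1 and 30.6 against 12.7 in replicate 2. At equal tag numbers, as in the standard lists, replicate 1 held 17.2 equivalent tags (DMSO) and 27.2 (GSK126), and replicate 2 held 20.1 and 45.9, so that GSK126 was the higher by 1.58-fold and 2.28-fold. The direction of the difference at EN2 therefore depends on the normalization.

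The difference in tags was not the same across the block. Over the 191.2 kb around EN2 the spike-in values were 2.64-fold and 2.25-fold lower with GSK126 in replicates 1 and 2. To the right of CNPY1, at chr7:155393201-155407800, they were 2.84-fold and 3.35-fold lower. At the right end of the block, at chr7:155411001-155420200, they went from 10.4 to 2.41 equivalent tags in replicate 1 and from 11.6 to 2.21 in replicate 2, 4.33-fold and 5.24-fold lower. At this end the enrichment was 6.31 with both treatments in replicate 1 and 4.98 and 4.86 in replicate 2. Around EN2 the enrichment went from 12.8 (DMSO) to 21.1 (GSK126) in replicate 1, and from 13.3 to 30.1 in replicate 2. These folds compare the chromatin called in each list. GSK126 islands covered 80.4 and 63.0% of the right end (DMSO 100 and 97.8%) and 65.8% of the stretch to the right of CNPY1 in both replicates (DMSO 100%), but 97.6 and 99.3% of the 191.2 kb around EN2. With standard normalization the right end had ratios of 1.04 and 0.88, so the replicates differed in direction there. The stretch to the right of CNPY1 had 0.65 and 1.23. The 0.65 sets the DMSO value of the whole 246.8 kb EN2 island against that of a separate GSK126 island of 15.2 kb. It therefore gives no direction for this stretch. These segments were drawn after the islands had been seen, and an island longer than a segment gives it the value of the whole island.

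In the spike-in lists the EN2 island had a smaller difference in tags than the median of all broad islands. Against the broad islands of highest DMSO enrichment this held in replicate 2 alone. Of the spike-in DMSO islands, 603 in replicate 1 and 792 in replicate 2 were 40 kb or longer, and 603 and 790 of them overlapped an island of GSK126. Their median was 3.00-fold and 3.12-fold lower with GSK126 (log2 ratio -1.58 and -1.64). For the EN2 island, with all GSK126 islands that overlap it, the values were 2.64-fold and 2.15-fold (log2 ratio -1.40 and -1.10), the 150th and the 59th from the highest. The 61 and 80 broad islands of highest DMSO enrichment, with EN2 in places 43 and 46, had medians of -1.37 and -1.24. Of these, 39 in replicate 1 and 18 in replicate 2 had a higher ratio than EN2. GSK126 islands covered 97.6 and 99.2% of the EN2 island, against a median of 86.0 and 84.8% over all broad islands. Of the broad islands, 18.4 and 21.3% were covered over at least 95%, as EN2 was. Among standard lists, 73.9 and 67.1% of the broad islands were covered so far, EN2 among them, and 89.8 and 92.6% of them held more equivalent tags with GSK126. There the log2 ratio was 0.70 and 1.14 for EN2 against medians of 0.34 and 0.63, and of 0.63 and 1.09 for the islands of highest DMSO enrichment.

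**Figure D3:**
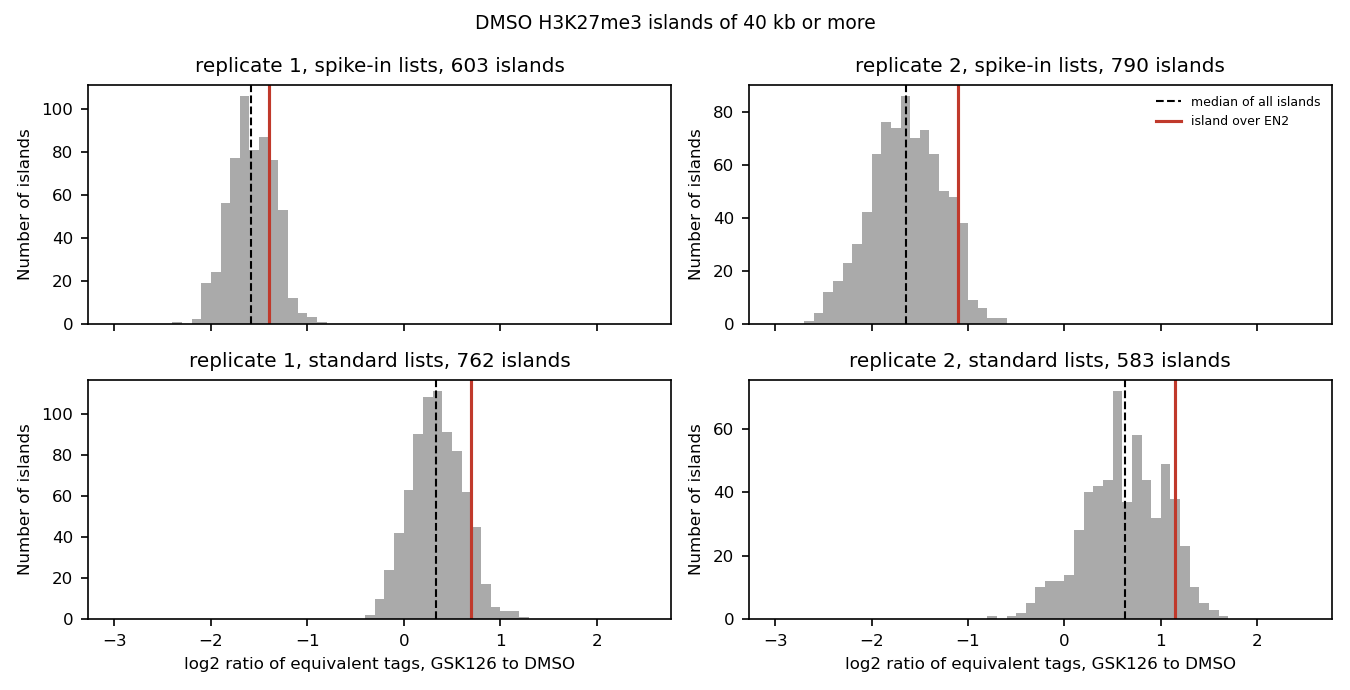
Histograms of the log2 ratio of equivalent tags, GSK126 to DMSO, for the DMSO H3K27me3 islands of 40 kb or more. Each replicate and normalization has a panel, with lines at the median of all islands and at the EN2 island. In the spike-in panels EN2 lies above the medians of all these islands, -1.58 and -1.64.

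CpG content placed the EN2 island above the middle of the broad islands of its chromosome. It holds 23.8 CpGs per kb in the limits of replicate 1 and 24.7 in those of replicate 2, against medians of 19.7 over 53 and 15.6 over 71 such islands (spike-in DMSO), where it ranked 16th and 15th. The list behind these ranks was chosen by H3K27me3, and they are a description.

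SHH lies near the left end of the longest block, which began 5.42 to 14 kb past the end of RBM33. It ended between positions 156443600 and 156446000, past the start of RNF32, in every list but that of GSK126 replicate 2 (spike-in), where it ended at 156414000. The RNF32 start carries H3K4me3. Spike-in islands of the SHH block covered 697.2 kb (DMSO) and 451.4 kb (GSK126) in replicate 1, against 719.0 kb and 469.0 kb in replicate 2, a log2 ratio of -0.62 ± 0.01 (SD, n = 2). The number of islands was 59 and 69 in replicate 1 and 52 and 50 in replicate 2. Of the length covered in both DMSO replicates, 58.6% was covered in both GSK126 replicates, against 92.3% in the EN2 block. The islands of the SHH block were shorter and sparser than those of the EN2 block, and held 11.4 equivalent tags (DMSO) and 4.01 (GSK126) in replicate 1, against 15.5 and 5.73 in replicate 2, 2.84-fold and 2.70-fold lower. Standard islands covered 738.8 and 690.4 kb in replicate 1 and 681.0 and 579.6 kb in replicate 2 (log2 ratio -0.17 ± 0.10), with 82.0% kept.

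The SHH gene differed between treatments by more than its block did in the spike-in lists. With its 2000 bp upstream, it was covered by spike-in islands of H3K27me3 over 77.9% (DMSO) and 16.6% (GSK126) in replicate 1, against 91.7 and 38.2% in replicate 2. The standard lists gave 80.7 and 85.1% in replicate 1 and 89 and 54.7% in replicate 2, so the replicates differed in direction. The gene start lay inside an island with DMSO in replicate 2 alone, and 0.157 kb from one in replicate 1.

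LMBR1, the gene whose intron holds the SHH limb enhancer, had no H3K27me3 island in any list. The block in front of NOM1 began upstream of the LMBR1 start and ended 2.01 to 4.01 kb before the start of NOM1, which was likewise free of islands. The spike-in lists covered 33.8 kb of it (DMSO) and 12 kb (GSK126) in replicate 1, against 30.0 and 13.8 kb in replicate 2, a log2 ratio of -1.31 ± 0.26. Its islands were weak, with 8.04 and 2.33 equivalent tags in replicate 1 and 12.1 and 2.13 in replicate 2. In both GSK126 lists 35.6% of the length shared by the DMSO replicates was kept. With standard normalization 59.7% was kept and the log2 ratio was -0.39 ± 0.50, so the replicates were farther apart than the mean was from 0.

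In the spike-in lists MNX1 had the smallest share covered by H3K27me3 islands with GSK126 among the 3 developmental genes. In standard replicate 1 it did not, with 93.6% against 85.1% for SHH. Its block covered 32.6 kb (DMSO) and 10.8 kb (GSK126) in spike-in replicate 1, against 35.4 and 9.8 kb in replicate 2, a log2 ratio of -1.72 ± 0.18 (SD, n = 2), and 23% of the length shared by the DMSO replicates was kept in both. The gene with its 2000 bp upstream was covered over 72.1% (DMSO) and 14% (GSK126) in replicate 1, against 82.8% and 0% in replicate 2. What was left with GSK126 lay mainly upstream, in islands 4.84 and 5.64 kb from the start in replicates 1 and 2, the latter at chr7:156809001-156818800. The remaining islands held 3.78 and 3.66 equivalent tags, 2.35-fold and 3.19-fold below the DMSO values of 8.90 and 11.7, and the chromatin that was no longer called is not in that comparison. After standard normalization the replicates went opposite ways, with 31 and 36.4 kb covered in replicate 1 and 31 and 16 kb in replicate 2 (log2 ratio -0.36 ± 0.84).

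**Figure D4:**
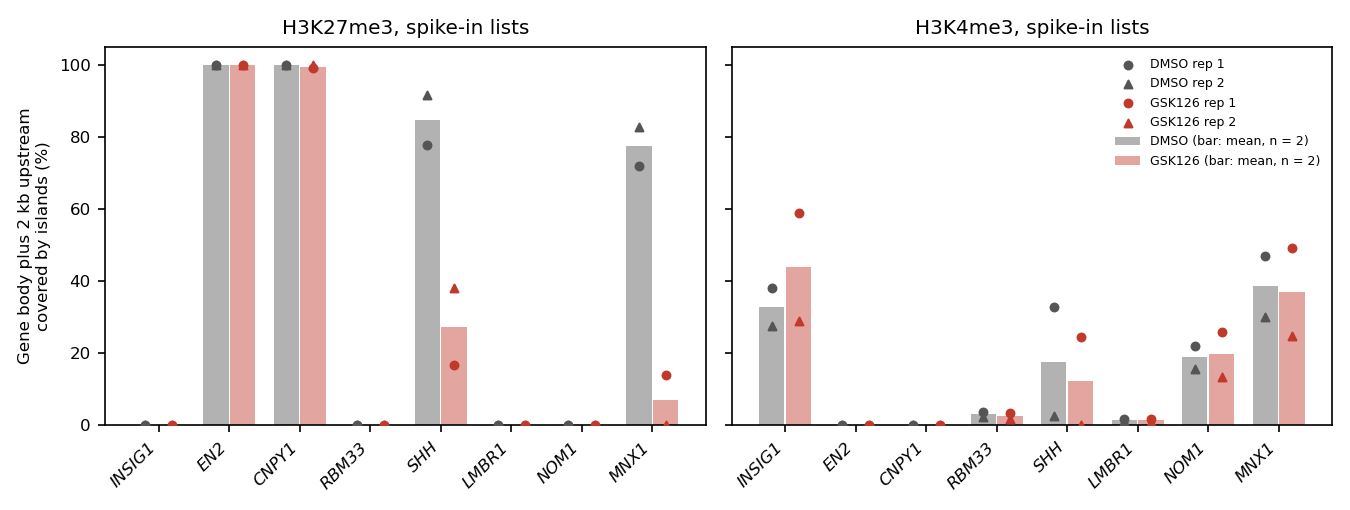
Share of each member (gene and 2000 bp upstream) covered by islands of the spike-in lists, in percent, for H3K27me3 and H3K4me3. Bars are means, with a point for each replicate of DMSO and GSK126, and the standard lists are not drawn. EN2 stays at 100% H3K27me3 throughout, and MNX1 goes from 72.1 and 82.8% to 14 and 0% in the spike-in lists.

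The 4 blocks were thus ordered alike in both replicates by the ratio of covered length, GSK126 to DMSO, in the spike-in lists, EN2 first, then SHH, the block before NOM1, and MNX1. The enrichment in DMSO was 12.7 in both replicates of the EN2 block, 6.89 and 6.65 in the SHH block, 4.86 and 5.19 before NOM1 and 5.38 and 5.01 in the MNX1 block, and the order of the last 2 blocks differed between replicates. The spike-in GSK126 lists hold fewer tags, so in them a weak island that fell below the calling threshold and one that lost the mark cannot be told apart. The enrichment of a single library differed between its standard and its spike-in list by at most 5.45% in the EN2 block, and by up to 92.2% in the MNX1 block (GSK126 replicate 1), where the called islands differed, so that equivalent tags compare treatments over like chromatin at EN2 better than at MNX1.

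**Figure D5:**
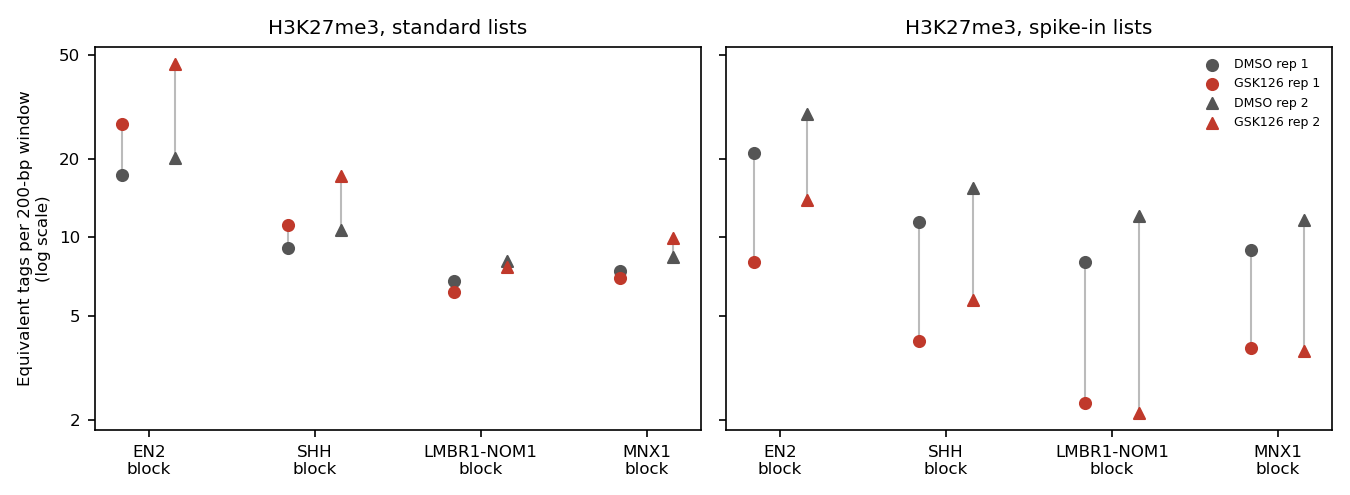
Equivalent tags per 200 bp window in the islands of the H3K27me3 blocks, for DMSO and GSK126 in each replicate, in the standard and the spike-in lists. In the EN2 block the values go from 21.0 to 8.07 and from 29.5 to 13.9 in the spike-in lists, and from 17.2 to 27.2 and from 20.1 to 45.9 in the standard lists.

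Of all genes with an island in both DMSO replicates of the spike-in lists, 89.7% were covered over a shorter length with GSK126 in both replicates. Of the 4 members among them, SHH and MNX1 were, and EN2 and CNPY1 were not. Gene starts that lay in an island in both DMSO replicates were outside islands in both GSK126 replicates for 35.1% of genes and for 1 of 3 members, MNX1. The standard lists gave 56.3% of genes and none of the 4 members (0 of 4) covered over a shorter length in both replicates, and 9.84% of starts and neither member start (0 of 2) lost.

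H3K4me3 was absent from EN2 and CNPY1 in every list, with either treatment. Their block held 2 or 3 small H3K4me3 islands in each list, none longer than 2.8 kb and none at the EN2 or CNPY1 start. At the other members the H3K4me3 islands over the starts were present with both treatments, SHH aside. The island over the INSIG1 start was 6.2 kb (DMSO) and 6.6 kb (GSK126) in spike-in replicate 1 and 4.0 and 4.2 kb in replicate 2, with ratios of equivalent tags of 0.97 and 0.93 (log2 ratio -0.07 ± 0.05). RBM33 had ratios of 0.91 and 1.11 (log2 ratio 0.01 ± 0.21), LMBR1 0.92 and 1.03 (-0.04 ± 0.12) and NOM1 0.65 and 0.90 (-0.38 ± 0.33). For NOM1 the island was also longer with GSK126 in replicate 1 (7.0 against 5.8 kb) and shorter in replicate 2 (3.4 against 4.0 kb). The means of RBM33 and LMBR1 lay within the SD of the replicates and those of INSIG1 and NOM1 slightly beyond it. The standard lists gave higher log2 ratios, of 0.18 ± 0.10 for INSIG1, 0.26 ± 0.12 for RBM33, 0.25 ± 0.04 for LMBR1 and 0.03 ± 0.12 for NOM1. The sign thus depended on the normalization for INSIG1, LMBR1 and NOM1, and the means of INSIG1, RBM33 and LMBR1 were above the SD in the standard lists. These ratios compare tags per window over islands of unlike length. In the standard lists the RBM33 island went from 6.2 to 5.6 kb in replicate 1 and from 3.0 to 2.2 kb in replicate 2. The LMBR1 island went from 4.2 to 4.0 kb and from 2.6 to 2.2 kb.

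SHH and MNX1 had both marks in part. At SHH an H3K4me3 island of 2.2 kb covered the start with DMSO in replicate 1, with 8.18 equivalent tags per window against 58.2 at MNX1 in the same list. No other list had H3K4me3 at the SHH start, replicate 2 being the shallow one. At MNX1 an H3K4me3 island lay over the start in every list. Its length was 6.4 kb (DMSO) and 5.4 kb (GSK126) in spike-in replicate 1, against 4.4 and 3.2 kb in replicate 2. Its tags were 58.2 and 46.1 in replicate 1 and 15.7 and 13.6 in replicate 2 (log2 ratio -0.27 ± 0.09), and in the standard lists the log2 ratio was 0.03 ± 0.12. The H3K27me3 islands covered 100% of this H3K4me3 island with DMSO in both replicates of the spike-in lists and 0% with GSK126 in both. Standard islands covered 100% with either treatment in replicate 1, and 40.9% with DMSO and 0% with GSK126 in replicate 2.

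Of all genes with H3K4me3 in both DMSO replicates, 37.8% had a shorter H3K4me3 length with GSK126 in both replicates of the standard lists, and 37.1% of the spike-in lists. Of the 6 members concerned, RBM33, SHH and MNX1 were shorter in the standard lists, and RBM33 and SHH in the spike-in lists. H3K4me3 was lost from the start in both replicates at 0.151 and 0.187% of genes (standard and spike-in) and at none of 5 members (0 of 5).

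Genes of the same pathways were counted in the same way. Of 19 hedgehog pathway genes, 7 had their start in an H3K27me3 island in both DMSO replicates, with either normalization. These were the ligand genes IHH and DHH, the receptor gene PTCH1, the signal transducer gene SMO, the co-receptor gene BOC and the transcription factor genes GLI2 and GLI3. In the spike-in lists the starts of 2 of the 7, PTCH1 and GLI3, were lost with GSK126 in both replicates (background 35.1%). Of the 12 pathway genes with islands, 10 were covered over a shorter length (background 89.7%). With standard normalization 1 start of 7 was lost, that of GLI3 (background 9.84%), and 6 of 12 genes were shorter (background 56.3%). IHH and DHH, unlike SHH, had their starts in an island with DMSO and with GSK126 in all lists.

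Of 9 genes of the midbrain-hindbrain organizer, in which EN2 acts, PAX2, PAX5 and WNT1 had their starts in H3K27me3 islands in both DMSO replicates of either normalization, and EN1 in those of the standard lists. None of these starts was lost in both GSK126 replicates (0 of 4 in the standard and 0 of 3 in the spike-in lists, against 9.84 and 35.1% of starts). Of the genes with islands, 7 of 7 were covered over a shorter length in the spike-in lists (background 89.7%) and 3 of 7 in the standard lists (background 56.3%). GBX2 was the 1 gene of the 9 with H3K4me3 at its start in both replicates. Of 8 transcription factors of motor neurons and pancreas, NKX2-2, OLIG2 and NEUROG2 had H3K27me3 at their starts, no start was lost in both replicates (0 of 3, against 35.1% of starts in the spike-in lists and 9.84% in the standard lists), and 1 of 6 genes with islands was shorter with either normalization (against 89.7 and 56.3% of genes). Of 6 genes of sterol sensing, around INSIG1, none had H3K27me3 at the start (0 of 6) and 5 had H3K4me3.

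Over the whole 1.72 Mb the spike-in lists covered 1060 kb (DMSO) and 758.6 kb (GSK126) in replicate 1, against 1085 and 775.2 kb in replicate 2 (log2 ratio -0.48 ± 0.00), and the standard lists 1099 and 1058 kb and 1032 and 905 kb (-0.12 ± 0.09). For H3K4me3 the log2 ratios were -0.30 ± 0.18 and -0.22 ± 0.09, with genome values of -0.20 ± 0.01 and -0.19 ± 0.11. The difference in H3K27me3 covered length in the spike-in lists was thus smaller here than in the genome. The stretch was chosen around the DMSO island over EN2, which had rank 2 by score in both spike-in DMSO lists. That comparison with the genome is therefore a description. For H3K4me3 the genome values lay within 1 SD of those of the stretch.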

How the data were processed

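PC9 cells were profiled by ChIP-seq for H3K27me3 and H3K4me3 after treatment with DMSO or GSK126 (8 libraries, 2 in each group). Per the study's methods, BWA was used by the authors for alignment of single-end 50-nt tags to human (hg19, that is, GRCh37) and fly (dm3) genomes. They removed duplicates, kept uniquely mapped tags (mapping quality over 25), removed human tags at random for either normalization, and ran SICER on each library without a control (200 bp windows, E-value 1, gaps up to 600 bp for H3K27me3 or 200 bp for H3K4me3). The submitters' processing notes also name SAMtools 0.1.18. The deposited score of an island sums the negative log Poisson probabilities of its windows, and it is the only value in the lists, which give no tag counts. Each H3K4me3 DMSO library has a single list, which served in both normalizations.

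Tag densities were read from islands of 2 windows, whose scores all lay on the values that whole numbers of tags give, within 0.0001. Equivalent tags and covered lengths were computed with Python 3.11.15, NumPy 2.4.6, pandas 2.3.3 and SciPy 1.17.1, and drawn with Matplotlib 3.10.9. The steps were tested on simulated data. Equivalent tags run slightly above the mean where tags are uneven, and hold for called islands only. Ratios were formed within replicates, since tags had been removed within them. Replicate numbers follow the order of the samples and the tag table of the study. The members and gene lists were chosen with earlier results of these data known, and the blocks, segments, CpG counts and tag copies after the islands had been seen. Genes named beyond the members are those of the lists whose state at the start differs from most of their list. Comparisons between treatments were not tested, as the design has 2 replicates. Depth limits what an island list can show: a weak stretch in a shallow list is not called, and no counting interval can be given. The alternatives were a stricter score, a minimum island length, an overlap of 50%, the standard DMSO lists beside the spike-in GSK126 lists, other assumptions on scored windows, and leaving out a replicate or the pairing.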

Additional observations from a re-analysis of the deposited data

How the results depend on the processing

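Of 73 alternatives to the main comparisons, 62 stayed within the spread between replicates and 11 moved beyond it, and the number of H3K27me3 islands in the spike-in lists was the comparison among them that changed sign. Many of the 62 could not have moved. Leaving out either of 2 replicates shifts their mean by less than their SD, and leaving out the pairing does not change a mean log2 ratio. The count of 62 is therefore no measure of robustness. With islands of at least 2 times the lowest score of their list, the log2 ratio over the 1.72 Mb went to -0.59 (from -0.48) for the length of H3K27me3 in the spike-in lists, to -0.77 (from -0.62) for that outside the EN2 island, to -0.18 (from 0.08) for the number of its islands, and in the standard lists to -0.33 (from -0.22) for the length and -0.34 (from -0.19) for the number of H3K4me3 islands. The share of DMSO islands of H3K27me3 that overlapped a GSK126 island in the spike-in lists went to 62.8% (from 69.4%) with that score. With an overlap of at least 50% it was 55.4%, and in the standard lists 80.3% (from 90.7%). With a minimum length of 2000 bp for H3K27me3 the spike-in length ratio was -0.48, and against the standard DMSO lists it was -0.47. With 600 bp for H3K4me3 the number ratio in the standard lists was -0.23. The island over the EN2 start alone had a log2 ratio of -1.38 ± 0.29 (spike-in), -1.26 where only 1 in 4 windows was scored, and -1.58 to -1.17 without either replicate. Leaving out a replicate gave -0.02 (without replicate 1) to 0.19 for the number of H3K27me3 islands (spike-in). With standard normalization the H3K27me3 share was lower with GSK126 by 14.9 percentage points at SHH and 15.7 at MNX1, and was higher by 4.44 and 23.6 without replicate 2. The H3K4me3 share of MNX1 in the spike-in lists and of NOM1 in either normalization also changed sign between replicates. Without the replicate block, that is, without pairing GSK126 and DMSO within a replicate, the length ratio was -0.48. It could not differ, since the mean of log2 ratios is the same with and without pairing.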
